A study of Mus musculus with 18 samples.

Results

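Liver ILC1s that carried RARa403 were compared with liver NK cells that carried it, over all expressed genes. The question was which genes of cell identity still separate the populations under RARa403, which is meant to block retinoic acid receptor signalling. Whether signalling was blocked in these cells was not tested. The members are 6 of the 18 libraries of the series, taken by their labels: 3 of RARa403 liver ILC1s and 3 of RARa403 liver NK cells. The mice were C57BL/6, 8 weeks old, with Ncr1-Cre and Rosa26-RARα403. Ncr1-Cre makes Cre recombinase in cells that express the NK receptor NKp46, and Cre switches on RARα403, a shortened, dominant negative form of the α receptor for retinoic acid, from the Rosa26 locus. Control mice, from which 3 libraries of each population serve below as the untreated background, carried Ncr1-Cre alone, so every library came from Cre-bearing mice. Both populations were sorted as CD3-negative, NK1.1-positive and NKp46-positive cells. ILC1s were taken as CD49a-positive, CD49b-low and IL-7R-positive, and NK cells as CD49a-negative and CD49b-positive. RNA of 200 sorted cells was amplified with a SMART-seq kit for each library, which is a bulk measurement. Whether libraries came from separate animals is not stated in the labels, so p-values measure the spread between these libraries, which may be technical.

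ILC1s and NK cells are related innate lymphocytes that share the factor T-bet, make interferon-γ and carry many of the same receptors. ILC1s of the liver stay in the tissue and are known for CXCR6, CD49a and the repressor Hobit, the product of Zfp683, whereas NK cells circulate and are known for Eomes, CD49b, Ly49 receptors and a large store of perforin and granzymes. Retinoic acid, made from vitamin A, binds receptors of the RAR family, which sit on DNA with RXR partners. Without ligand these receptors hold target genes down, and a dominant negative form does so in the presence of ligand.

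The 6 RARa403 libraries held 5852815 to 9038767 counts and the 6 control libraries 3452279 to 8995720. The first NK RARa403 library stood apart. Its scaling factor was 0.680, its mean correlation with the rest of its group was 0.633, while the other 11 liver libraries had 0.770 to 0.917, and of 2735 genes above 50 CPM (counts scaled to a common library total) in every other library 192 (7.02%) had 3 counts or fewer there. Its Rara level was 431 CPM, against 22.5 and 33.9 CPM in the other NK RARa403 libraries, and its Lars2 level was 10096 CPM against 214 and 120.5 CPM. Results are therefore given for all libraries and without NK library 1. The transcript of the locus that carries the transgene, Gt(ROSA)26Sor, had 62.8, 0.15 and 0 CPM in the ILC1 RARa403 libraries and 0, 1.11 and 0 CPM in the NK RARa403 libraries, and 22.5 to 123 CPM in the control libraries. The library labelled ILC1 RARa403 library 1 thus lay within the control range at that locus. Gm13394, a predicted gene, had 2.96, 104 and 102 CPM in the ILC1 RARa403 libraries and 13.7, 112 and 75.4 CPM in the NK RARa403 libraries, against 5.003 to 8.72 CPM in the control libraries. Both libraries labelled RARa403 library 1 were far below the other 4 there. ILC1 library 1 did not exceed the control range at either gene, so its label is in doubt. NK library 1 had 0 CPM of Gt(ROSA)26Sor, below the control range, and its Gm13394 level was above that range. The labels were not tested further. Both libraries are used below under their labels. A fit of libraries 2 and 3 alone, without both, is given for the overall counts and for NK, Ly49 and T cell genes. The transgene itself has no feature analysed here. Xist, the RNA that silences one X in females, had 197 CPM in ILC1 library 2 and 125 CPM in NK library 2, and at most 2.67 CPM in the other RARa403 liver libraries, so both groups held 1 library with it.

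Marker sums followed the sorts, in part because genes of the gates are among the markers. The ILC1 markers were Cxcr6, Itga1, Zfp683, Tnfsf10, Cd200r1, Il7r, Cd69 and Il2ra, of which Itga1 and Il7r belong to the gates. The NK markers were Eomes, Itga2, Itgam, Zeb2, Klra8, Klra4, S1pr5, Prf1, Gzma and Cma1, of which Itga2 does. ILC1 markers summed to 1697 to 3029 CPM in RARa403 ILC1s, against 99.9 to 460 CPM in RARa403 NK cells, with no overlap. NK markers summed to 1448 to 3534 CPM in RARa403 ILC1s, where library 1 was the highest, against 5717 to 14110 CPM in RARa403 NK cells, where library 1 was the lowest. Hepatocyte markers reached at most 11.8 CPM in any of these libraries. T cell markers summed to 1966 to 2356 CPM in RARa403 ILC1s, against 788 to 1766 CPM in RARa403 NK cells, B cell markers to 542 to 724 CPM against 61.1 to 360 CPM, and myeloid markers to 198 to 325 CPM against 127 to 229 CPM. Cd8a and Cd8b1 had 0 counts in all 6. Haemoglobin and other erythroid transcripts summed to 1102, 771 and 0 CPM in ILC1 libraries 1, 2 and 3, against 0, 0 and 13.7 CPM in the NK libraries. The part of such cells in the results was not tested.

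Few genes passed the threshold of edgeR in RARa403 cells, and most of those were higher in ILC1s, a split that several other settings did not keep. With all libraries, 51 genes were higher and 8 lower in RARa403 ILC1s than in RARa403 NK cells at an edgeR adjusted p under 0.05, which is 0.347% and 0.0544% of the 14714 genes tested (0.401% in all). Leaving out NK library 1 gave 67 higher and 15 lower, 0.404% and 0.0906% of 16565 genes (0.495% in all). The calls shared by both fits numbered 50, with 44 higher and 6 lower. With all libraries DESeq2 called 273 higher and 281 lower, limma-voom 107 and 110, and edgeR without a filter on low counts 234 and 560. Without NK library 1 they called 283 and 62, 157 and 135, and 261 and 130. The median log2 fold change over all genes tested was 0.07 with all libraries and 0.04 without NK library 1. The counts rest on the spread estimated over all groups of the series: when the 6 libraries were fitted alone 0 genes passed, and 4 when NK library 1 was also left out, namely Sema6d, Zfp683, Tmem176b and Mcam. At an unadjusted p under 0.05, 1808 genes (12.3%) passed in the fit to all groups and 1143 (6.9%) without NK library 1. The counts of gene lists below are to be read beside these counts and shares over all genes for the same test.

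The number of calls also depended on single libraries. Over all libraries it was 18 without ILC1 library 2 and 23 without ILC1 library 3, all higher. It was 199 without NK library 2 and 254 without NK library 3, with 136 and 163 of these lower. Without ILC1 library 1 it was 50, with 45 higher and 5 lower. With NK library 1 left out as well it was 46 and 53 without ILC1 library 2 or 3, and 26 and 38 without NK library 2 or 3. On libraries 2 and 3 of every group, which leaves out ILC1 library 1 and NK library 1 together, 162 genes passed, 114 higher and 48 lower. Of the 42 named genes called over all libraries, 12 stayed past the threshold whichever of the 6 libraries was left out: Gpr34, Sept8, Adgrg3, Bmp7, Cd3e, Plcg1, Ifitm2, Socs2, Tmem176b, P2rx7, Itgb7 and Tcrg-C4. Of the 49 named genes called without NK library 1, 10 did so over its 5 libraries: Sept8, Plcg1, Irf8, Serpinb9, Prf1, Cxcr6, Tmem176b, Cd160, Itgb7 and Tcrg-C4. The 12 and the 10 genes share Sept8, Plcg1, Tmem176b, Itgb7 and Tcrg-C4. On libraries 2 and 3 alone Cd3e (edgeR adjusted p = 0.0641) and Ifitm2 (0.0717) did not pass. With a block for each genotype and replicate number in the model, 16 of the 50 calls shared by both fits stayed over all libraries. Without NK library 1, 39 did. Gpr34, Adgrg3, Bmp7, Ifitm2, P2rx7, Cxcr6, Ccr8, Zfp683, Cd226, Ahr, Sgms1, Lyst, Klrb1b and Trbc2 lost only the call over all libraries. Cd200r1, Asb2, Cd96, Cdh1, Tcrg-C2 and Plxdc2 lost both calls. Limma-voom did not call Cd3e, Cxcr6, Zfp683, Cd200r1, Ahr, Asb2, Tmem176a or Tcrg-C2 in either fit. It missed P2rx7, Cd200r2 and Ifitm2 with all libraries and Tmem176b without NK library 1. For the other genes below, a call means a call on the libraries named, and the fits that leave out 1 library are given beside it.

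**Figure D1:**
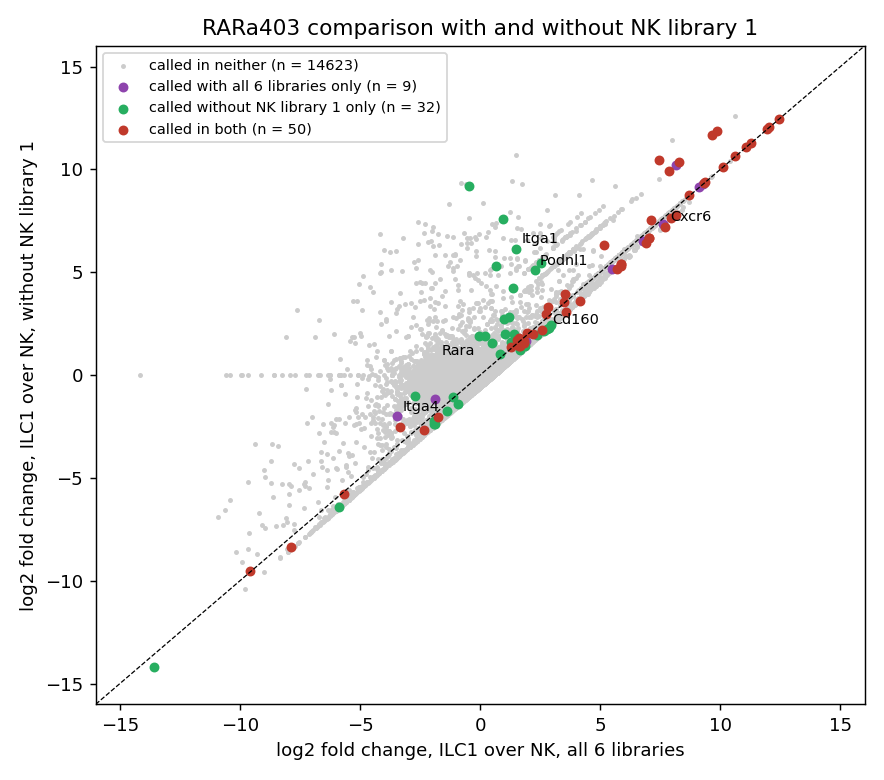
Each point is a gene tested in both fits, with its log2 fold change of RARa403 ILC1s over RARa403 NK cells from all 6 libraries on the horizontal axis and without NK library 1 on the vertical axis, and the dashed line marks equal values. Most of the 50 genes called in both fits (red) lie near the line, while Itga1, at a log2 fold change of 6.15 only without that library, and Rara, at -1.83 against 0.71, lie far above it.

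Cxcr6 and Ccr8 were the chemokine receptors called in both edgeR fits. Limma-voom did not call Cxcr6 in either fit, and DESeq2 did not call it with all libraries. Cxcr6, the receptor that holds ILC1s in the liver sinusoids, had 471, 1302 and 1300.4 CPM in RARa403 ILC1s, against 0, 0 and 14.7 CPM in RARa403 NK cells. Every ILC1 library lay far above every NK library. The log2 fold change was 7.70 ± 1.41 (SE, edgeR adjusted p = 0.0234) with all libraries and 7.20 ± 1.25 (edgeR adjusted p = 0.0127) without NK library 1. The first call was lost without ILC1 library 2 (adjusted p = 0.0780) or 3 (0.0680). Ccr8, another chemokine receptor, had 14.8, 25 and 15.1 CPM in RARa403 ILC1s and 0.244, 0 and 0 CPM in RARa403 NK cells, where a single count was seen in library 1 and none elsewhere. Over counts summed per group and scaled by the summed library totals, the ratio was 349 (95% counting interval 62.2 to 13808) (edgeR adjusted p = 0.0234). With that library left out it was at least 43.9-fold higher in ILC1s, taking 3 counts per NK library as the floor (edgeR adjusted p = 0.0207). Leaving out ILC1 library 2 ended the call in both fits (adjusted p = 0.0785 and 0.0551), and so did ILC1 library 3 over all libraries (0.0593) and NK library 2 (0.238) or 3 (0.139) in the fit without NK library 1. Cxcr3, which brings lymphocytes to inflamed tissue, had 383, 634 and 666 CPM in RARa403 ILC1s against 8.31, 48.3 and 161 CPM in RARa403 NK cells and passed only without NK library 1 (log2 fold change 2.44 ± 0.40, edgeR adjusted p = 0.00955, against 0.0657 with all libraries). That call was lost without NK library 2 (0.0663). Of 15 tested members of the chemokine receptor list, edgeR called 2 higher and 0 lower with all libraries (0.347% and 0.0544% of all genes). Without NK library 1 it called 3 and 0 (0.404% and 0.0906% of all genes). DESeq2 called 5 and 0, and 7 and 1, and limma-voom 3 and 0, and 3 and 1.

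Zfp683 had 38, 65.2 and 60 CPM in RARa403 ILC1s, against 3.42, 0.668 and 0.668 CPM in RARa403 NK cells. The groups did not overlap. Its log2 fold change was 5.17 ± 1.02 (edgeR adjusted p = 0.0358) with all libraries and 6.32 ± 1.05 (edgeR adjusted p = 0.00981) without NK library 1. It passed on the 5 libraries fitted alone, but leaving out any of ILC1 libraries 1, 2 and 3 or NK libraries 2 and 3 from the first fit ended the call (adjusted p between 0.0533 and 0.116), as did NK library 2 (0.139) or 3 (0.0870) in the second. Ahr, a ligand-activated factor of tissue lymphocytes, had 32.4, 219.8 and 88.9 CPM in RARa403 ILC1s, against 14.2, 6.12 and 9.01 CPM in RARa403 NK cells, and was called in both fits (log2 fold change 3.55 ± 0.66 and 3.92 ± 0.75, edgeR adjusted p = 0.0267 and 0.0219). ILC1 library 2 held its highest value, and without it the adjusted p was 0.147 and 0.0685. It also missed the threshold over all libraries without ILC1 library 3 (0.0615) or NK library 2 (0.0506), and in the other fit without NK library 2 (0.322) or 3 (0.139). Ikzf2, which encodes Helios, had 159, 172 and 219 CPM in RARa403 ILC1s against 0.244, 29.5 and 45.6 CPM in RARa403 NK cells, and passed without NK library 1 (log2 fold change 2.31 ± 0.35, edgeR adjusted p = 0.00547) but not with it (adjusted p = 0.187) nor without NK library 2 (0.139). Id3, an inhibitor of E proteins, had 1.25, 12.6 and 8.47 CPM in RARa403 ILC1s against 0, 0.111 and 0 CPM in RARa403 NK cells, a single count, and was called with all libraries (ratio 144 (95% counting interval 25.4 to 5709.7), edgeR adjusted p = 0.0304) but not without NK library 1 (0.0710), ILC1 library 2 (0.109) or ILC1 library 3 (0.0798). Over the 48 tested transcription factors of the 2 cell types, edgeR called 3 higher and 1 lower in each fit. Over all genes the shares were 0.347% and 0.0544% with all libraries, and 0.404% and 0.0906% without NK library 1. Of the factors DESeq2 called 6 and 4, and 6 and 2, and limma-voom 1 and 3, and 2 and 4. The median log2 fold changes of the factors were -0.02 and 0.04, close to the median of all genes.

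The receptor genes Cd200r1 and Cd200r2 were higher in RARa403 ILC1s. Cd200r1, an inhibitory receptor for CD200, had 30.4, 207 and 83 CPM in RARa403 ILC1s and 0 counts in every RARa403 NK library. It was at least 204-fold higher with all libraries (edgeR adjusted p = 0.021) and at least 256-fold higher without NK library 1 (edgeR adjusted p = 0.0227), with the floor of 3 counts in each NK library. Its neighbour Cd200r2, a family member, had 11.8, 154 and 63 CPM in RARa403 ILC1s and again 0 counts in every RARa403 NK library, with edgeR adjusted p = 0.0306 and 0.0395. How reads that match both genes were counted is not stated, so their counts could be shared. Without ILC1 library 2 both lost their calls over all libraries (0.0636 for Cd200r1, 0.0951 for Cd200r2), Cd200r2 also did so without ILC1 library 3 (0.0724), and in the fit without NK library 1 both lost them without ILC1 library 2 (0.0589 and 0.0889), NK library 2 (0.238 and 0.296) or NK library 3 (0.139 and 0.171), and Cd200r2 without ILC1 library 3 (0.0818).

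Cd226, the activating receptor DNAM-1, was present in both populations, with 232, 502 and 339 CPM in RARa403 ILC1s and 55.9, 78.8 and 102 CPM in RARa403 NK cells. No library of one group reached the other, and the log2 fold change was 2.18 ± 0.34 (edgeR adjusted p = 0.0124) with all libraries and 2.00 ± 0.34 (0.00995) without NK library 1. Cd96, the competing receptor for the same ligand, had 224, 265 and 214 CPM in RARa403 ILC1s and 98.7, 84.3 and 102 CPM in RARa403 NK cells (log2 fold change 1.30 ± 0.25 and 1.35 ± 0.25, edgeR adjusted p = 0.0319 and 0.018). Cd7, a surface protein of T and innate lymphocytes, had 1397, 1924 and 1521 CPM against 642, 406 and 541 CPM (log2 fold change 1.61 ± 0.27 and 1.78 ± 0.26, edgeR adjusted p = 0.0124 and 0.00387). Klrb1b, a lectin-like inhibitory receptor, had 397, 544 and 719 CPM against 135, 148 and 235 CPM (log2 fold change 1.68 ± 0.32 and 1.55 ± 0.32, edgeR adjusted p = 0.0281 and 0.041). The groups did not overlap for any of these 4 genes, which both populations expressed. Their calls over all libraries ended without ILC1 library 2 (adjusted p = 0.0567 for Cd226, 0.195 for Cd96, 0.0785 for Cd7 and 0.103 for Klrb1b), those of Cd96 and Klrb1b also without ILC1 library 3 (0.107 and 0.179), and that of Cd96 without ILC1 library 1 (0.0822) or NK library 2 (0.0568). Without NK library 1 they ended when NK library 2 was dropped as well (0.193, 0.375, 0.0845 and 0.597), those of Cd226, Cd96 and Klrb1b without NK library 3 (0.0603, 0.114 and 0.0721), those of Cd96 and Klrb1b without ILC1 library 2 (0.0846 and 0.113), and that of Klrb1b without ILC1 library 3 (0.186).

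Cd160, a receptor for HVEM, passed only without NK library 1, in which it was nearly absent. It had 664, 1053 and 843 CPM in RARa403 ILC1s, against 0.733, 181 and 188 CPM in RARa403 NK cells. Its log2 fold change without that library was 2.23 ± 0.24 (edgeR adjusted p = 0.000346), and with it 2.79 ± 0.89, a larger value that did not pass (adjusted p = 0.22). Podnl1, a leucine-rich repeat protein, had 136, 182 and 196 CPM in RARa403 ILC1s against 97, 1.56 and 8.84 CPM in RARa403 NK cells and passed only without that library (log2 fold change 5.11 ± 0.80, edgeR adjusted p = 0.00621, against 0.347), a call that needed NK library 2 (0.0663 without it). Of 40 tested receptors outside the Ly49 family, edgeR called 6 higher and 0 lower with all libraries (0.347% and 0.0544% of all genes). Without NK library 1 it called 7 and 1 (0.404% and 0.0906% of all genes). DESeq2 called 11 and 1 in both, and limma-voom 7 and 2, and 8 and 3.

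The promoters of 3 of these genes are shown because T-box factors act in both cell types and retinoic acid receptors are the target of RARa403. The 250 bases before each annotated start of a gene were searched on both strands. The letters were a T-box half-site (AGGTGTGA), the half-site of retinoid receptors (AGGTCA) and a direct repeat of the retinoid half-site with a spacer of 5 bases. A gene counted as holding a match if any of its starts did. The T-box and retinoid letters can share bases on opposite strands, as they do in Cd200r2. Sequences are from RefSeq on GRCm38.p6, written 5′ to 3′ along the gene, and capitals mark the matches. The genes were chosen for display after their values were seen, and every stretch shown holds a match. The Cxcr6 stretch and that of the first annotated P2rx7 start held none and are not shown. Starts of Sgms1, some with and some without a match, are not shown either.
Cd200r2, chr16:44866847-44867096, plus strand: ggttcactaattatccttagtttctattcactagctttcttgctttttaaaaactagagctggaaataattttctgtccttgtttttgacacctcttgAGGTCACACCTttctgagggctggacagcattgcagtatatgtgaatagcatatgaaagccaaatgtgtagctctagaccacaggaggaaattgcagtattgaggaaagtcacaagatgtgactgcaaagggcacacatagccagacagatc
Klrb1b, chr6:128826309-128826558, minus strand: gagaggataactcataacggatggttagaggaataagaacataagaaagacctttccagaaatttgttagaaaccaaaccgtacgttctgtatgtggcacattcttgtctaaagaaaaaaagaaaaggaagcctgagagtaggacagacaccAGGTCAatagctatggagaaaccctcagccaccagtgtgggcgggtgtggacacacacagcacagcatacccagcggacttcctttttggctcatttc
P2rx7, chr5:122650133-122650382, plus strand: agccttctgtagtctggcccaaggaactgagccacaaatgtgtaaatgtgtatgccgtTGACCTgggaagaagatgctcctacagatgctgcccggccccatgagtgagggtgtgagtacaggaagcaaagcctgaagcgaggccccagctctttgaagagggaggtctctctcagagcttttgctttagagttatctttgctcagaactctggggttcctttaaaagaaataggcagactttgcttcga
The Cd200r2 stretch carries both letters in overlap on opposite strands, Klrb1b carries the half-site forward, and P2rx7 carries it reversed at the second of its annotated starts. Among the 30 of 51 higher genes with a promoter in the table, 1 held the T-box letters (3.33%) and 5 the retinoid half-site (16.7%), against 0.903% and 13.2% of the 10186 tested genes with a promoter. None of the 6 lower genes with a promoter held either. In the fit without NK library 1 the half-site stood in 7 of 41 higher and 1 of 9 lower genes (17.1% and 11.1%), against 1503 of 11123 genes tested, and the T-box letters in 2 and 0, against 107. No called gene held the spaced repeat in either fit. A match is a description of letters and not a site of binding.

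P2rx7, an ATP-gated channel of tissue-resident lymphocytes, had 9.5, 67.3 and 42.1 CPM in RARa403 ILC1s, against 0.489, 0.334 and 0 CPM in RARa403 NK cells (log2 fold change 7.13 ± 1.10, edgeR adjusted p = 0.0124). Over the last 2 NK libraries, with 3 counts of it in all, the ratio was 199.8 (95% counting interval 68.1 to 971) (edgeR adjusted p = 0.0142, but 0.0845 without NK library 2 and 0.114 without NK library 3). Plcg1, a phospholipase of receptor signalling, had 35.4, 83.5 and 64.5 CPM in RARa403 ILC1s, against 0.244, 0 and 0 CPM in RARa403 NK cells. Only 1 count of it was found over the 3 NK libraries, which gives a ratio of 1173 (95% counting interval 210.1 to 46352), and without NK library 1 it was at least 146-fold higher (edgeR adjusted p = 0.000124 and 7.41e-05). Sept8, a septin of the cytoskeleton, had 28.7, 74.8 and 37.4 CPM in RARa403 ILC1s and 0 counts in every RARa403 NK library, at least 89.8-fold higher (edgeR adjusted p = 0.000124) and at least 112-fold without NK library 1 (0.000127). Socs2, a feedback inhibitor of STAT5 signalling, had 139, 389 and 279 CPM against 25.4, 15.9 and 30.7 CPM, with a log2 fold change of 3.49 ± 0.50 (edgeR adjusted p = 0.00715) and 3.55 ± 0.55 without NK library 1 (0.00585, but 0.105 without NK library 2 as well). It was the single member that edgeR called among 33 tested cytokine receptor and JAK-STAT genes with all libraries, and 1 of 34 without NK library 1 (0.401% and 0.495% of all genes in either direction). DESeq2 called 6 higher and 3 lower, and 9 and 1, and limma-voom 4 and 1, and 6 and 1.

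Tmem176b, a channel-like membrane protein, had 217, 391 and 442 CPM in RARa403 ILC1s, against 0, 2.56 and 5.84 CPM in RARa403 NK cells (log2 fold change 6.91 ± 1.00 and 6.43 ± 0.88, edgeR adjusted p = 0.00715 and 0.00254). Its neighbour Tmem176a was called alongside it, with 103, 242 and 244 CPM against 0.489, 3.12 and 0.501 CPM (edgeR adjusted p = 0.0124 and 0.0155). Gpr34, a receptor for lysophosphatidylserine, had 22.3, 137 and 80.2 CPM in RARa403 ILC1s and 0 counts in every RARa403 NK library (at least 153-fold and 191-fold higher, edgeR adjusted p = 0.014 and 0.0127). Likewise absent from the counts of all RARa403 NK libraries were Adgrg3, an adhesion G protein-coupled receptor, with 18.4, 43.8 and 27.2 CPM in RARa403 ILC1s, Sgms1, a sphingomyelin synthase, with 22.4, 51.7 and 47.6 CPM, and Bmp7, a bone morphogenetic protein, with 18.8, 31.8 and 12.3 CPM. These were at least 57-fold, 77.6-fold and 40.1-fold higher with all libraries (edgeR adjusted p = 0.0124, 0.0201 and 0.00715). Sgms1 lost that call without ILC1 library 2 (0.0634) or 3 (0.0526). In the fit without NK library 1, calls of genes at 0 in the 2 remaining NK libraries needed both of them: without NK library 2 the adjusted p was 0.140 for Gpr34, 0.171 for Adgrg3, 0.209 for Sgms1 and 0.0663 for Bmp7. Without NK library 3 it was 0.0777, 0.0981 and 0.114 for the first 3.

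Ifitm2, an interferon-induced membrane protein, had 7.17, 12.1 and 18.2 CPM in RARa403 ILC1s and 0 counts in every RARa403 NK library (at least 23.9-fold and 30-fold higher, edgeR adjusted p = 0.0124 and 0.018, but 0.255 without NK library 2 and 0.148 without NK library 3 in the second fit). Ldhb, a lactate dehydrogenase subunit, had 2.49, 9.44 and 23.4 CPM in RARa403 ILC1s and 0 counts in every RARa403 NK library (at least 22.6-fold higher, edgeR adjusted p = 0.036). It was not called without NK library 1 (0.0548), ILC1 library 2 (0.102) or 3 (0.119) or NK library 2 (0.0520). Plxdc2, a plexin domain protein, had 32.7, 22.8 and 17.8 CPM against 0.244, 0 and 0 CPM, a single NK count (ratio 461 (95% counting interval 82.4 to 18250.0), edgeR adjusted p = 0.0405, and at least 58.5-fold without NK library 1, 0.041). Its call ended in the first fit under every omission but that of NK library 1 (0.0575 to 0.109) and in the second under every one (0.0590 to 0.398), and on libraries 2 and 3 alone it was not called (0.0855). Serpina3g, a serine protease inhibitor of lymphocytes, was abundant in both, with 979.7, 1091 and 1300.5 CPM against 197, 252 and 459 CPM (log2 fold change 1.89 ± 0.39, edgeR adjusted p = 0.0459). That call did not hold without NK library 1 (0.0895), NK library 2 (0.0655) or ILC1 library 1, 2 or 3 (0.0745, 0.145 and 0.203).

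Adhesion genes gave calls in both directions. Itgb7, a β integrin that pairs with α4 or αE, had 900.1, 1093 and 1126 CPM in RARa403 ILC1s, against 221, 445 and 336 CPM in RARa403 NK cells (log2 fold change 1.64 ± 0.23 and 1.43 ± 0.17, edgeR adjusted p = 0.00715 and 0.000646). Its partner Itga4 had 226, 113 and 159 CPM in RARa403 ILC1s, against 4121, 842 and 500.1 CPM in RARa403 NK cells, where library 1 was by far the highest. Itga4 was called lower with all libraries (log2 fold change -3.46 ± 0.67, edgeR adjusted p = 0.0306) and not without NK library 1 (adjusted p = 0.0531). That call also ended without ILC1 library 1, 2 or 3 (0.0736, 0.188 and 0.181). Cdh1, E-cadherin, had 13.1, 23.4 and 41.2 CPM in RARa403 ILC1s and 0.489, 0 and 0 CPM in RARa403 NK cells (ratio 251 (95% counting interval 69.2 to 2081), and at least 62-fold higher without NK library 1; edgeR adjusted p = 0.0418 and 0.018), with every single omission but that of NK library 1 ending the call over all libraries (0.0533 to 0.161). In the other fit it ended without NK library 2 (0.250) or 3 (0.149). Of 24 tested genes of tissue residency and egress, edgeR called 6 higher and 1 lower with all libraries (0.347% and 0.0544% of all genes). Without NK library 1 it called 7 and 0 (0.404% and 0.0906% of all genes). DESeq2 called 6 and 1, and 8 and 1, and limma-voom 3 and 3 in both.

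**Figure D2:**
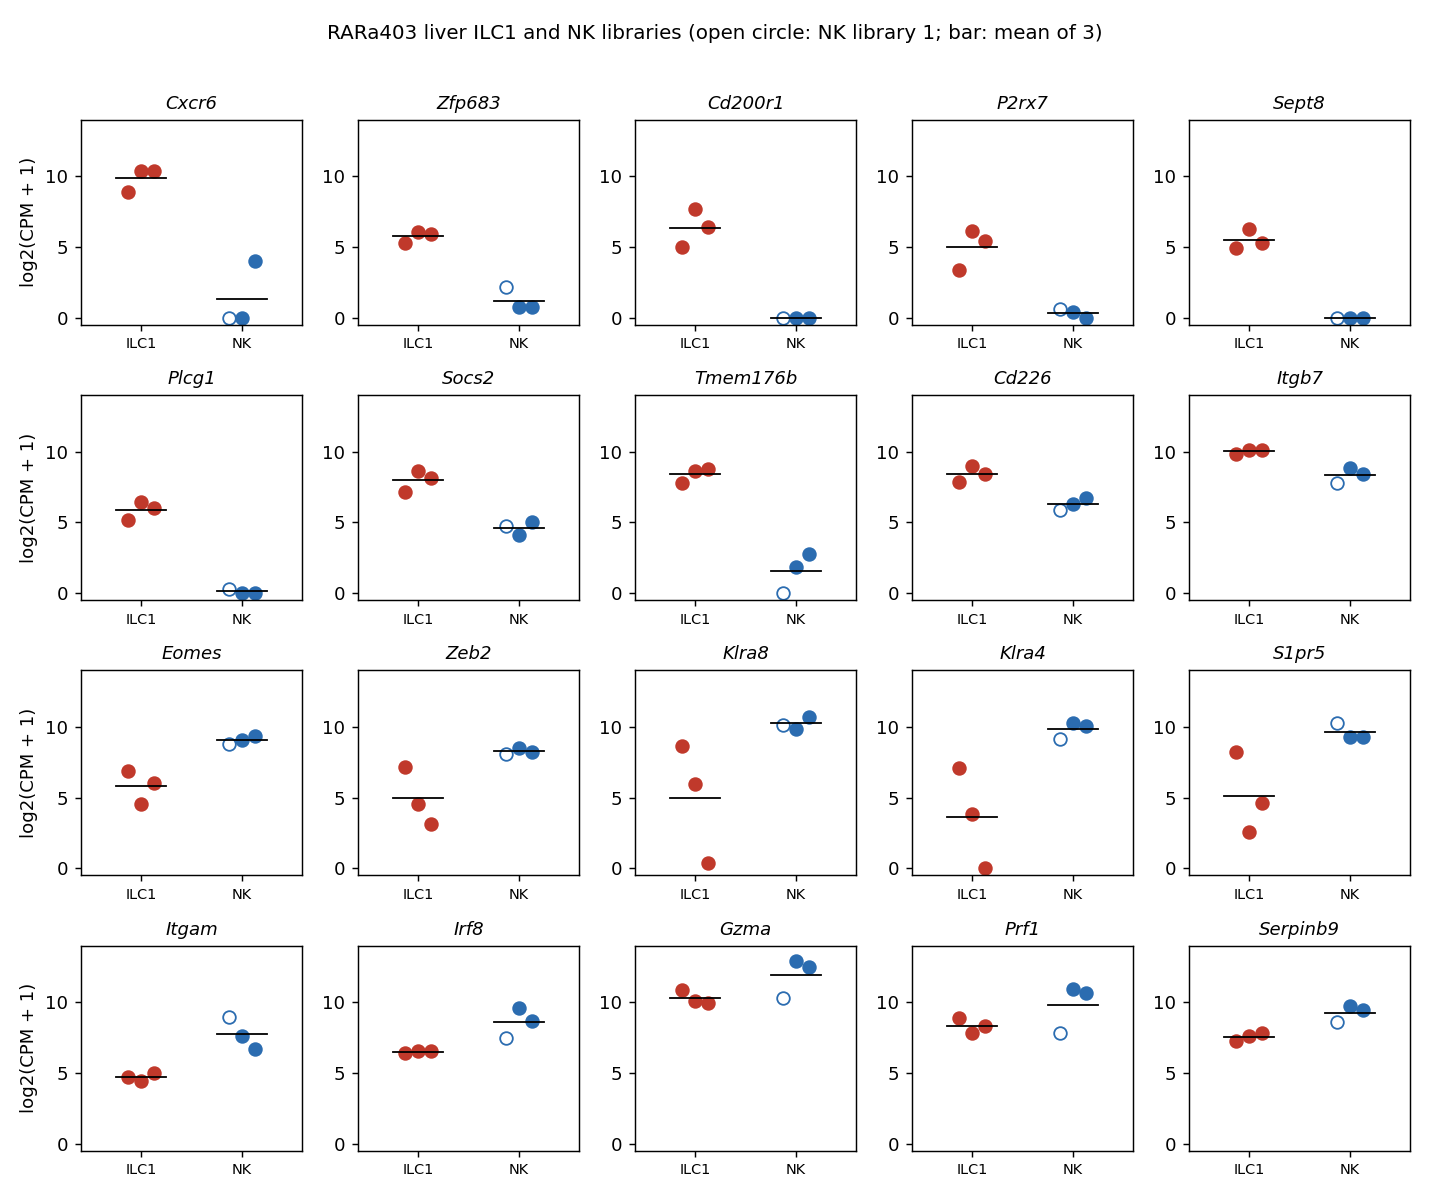
Each panel shows 1 gene as log2(CPM + 1) in the 3 RARa403 ILC1 libraries (red, left) and the 3 RARa403 NK libraries (blue, right), with NK library 1 as an open circle and a bar at the mean of the 3 values. The first 10 genes sit higher in ILC1s without overlap, while among the other 10 Gzma and Prf1 overlap through NK library 1 and Klra8, Klra4, Zeb2 and S1pr5 spread widely within the ILC1s.

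Over the list of genes that mark ILC1s, edgeR called 14 of 40 tested members higher and 0 lower in RARa403 ILC1s with all libraries (0.347% and 0.0544% of all genes). Without NK library 1 it called 19 and 0 (0.404% and 0.0906% of all genes). DESeq2 called 31 higher in both fits, limma-voom 15 and 14, and edgeR on libraries 2 and 3 alone 24, with 0 lower in each. The median log2 fold change of the 40 was 2.90 and 3.30. Since the list was drawn up with results of these data known, its direction is no independent evidence. Il7r, Tnfsf10, Ltb, Il2ra, Kit and Gzmc are members whose RARa403 groups did not overlap and which did not pass in either main edgeR fit. They did pass under some of the 14 alternatives with all libraries. Tnfsf10 and Ltb passed in 4, Il7r and Gzmc in 3, and Il2ra and Kit in 2. Tnfsf10, the death ligand TRAIL, had 114, 209.8 and 186 CPM in RARa403 ILC1s, against 0.244, 11.2 and 51.9 CPM in RARa403 NK cells (edgeR adjusted p = 0.189 and 0.0506), and Ltb, lymphotoxin β, had 440.2, 438 and 605 CPM against 99.2, 78.1 and 218 CPM (0.0756 and 0.151). Il2ra, the α chain of the interleukin-2 receptor, had 29.4, 60.2 and 85.1 CPM against 0.244, 1.89 and 1.84 CPM (0.145 and 0.239). Kit, the receptor for stem cell factor, had 186, 95.7 and 106 CPM against 53, 19.3 and 41.2 CPM (0.19 and 0.172). Gzmc, a granzyme of ILC1s, had 18.8, 78.7 and 93.6 CPM against 0, 0 and 4.01 CPM (0.22 and 0.422). Bcl2, a survival protein, had 436, 1034 and 954 CPM in RARa403 ILC1s and 242, 667 and 624 CPM in RARa403 NK cells, with overlap (0.568 and 0.941). Cd69 and Tcf7 overlapped as well: Cd69, an early activation and retention marker, had 32.1, 110.4 and 202 CPM in RARa403 ILC1s and 52, 71.9 and 157 CPM in RARa403 NK cells, and Tcf7, which encodes TCF-1, had 271, 168 and 302 CPM and 101, 145 and 194 CPM.

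Some transcripts of the T cell receptor complex, Cd3e, Tcrg-C2, Tcrg-C4 and Trbc2, were called higher in RARa403 ILC1s in both fits. Cd3e, a chain of the CD3 complex, had 119.8, 4.64 and 84.3 CPM in RARa403 ILC1s, against 0.244, 0 and 0 CPM in RARa403 NK cells. ILC1 library 2 was the low one, but still above every NK library (ratio 1320.0 (95% counting interval 237 to 52175), edgeR adjusted p = 0.0124 with all libraries, and at least 167-fold higher, 0.0142, without NK library 1). Tcrg-C4, a constant region of the γ chain, had 260.3, 686 and 459.6 CPM against 0, 16.5 and 7.18 CPM (log2 fold change 5.85 ± 0.93 and 5.30 ± 0.60, edgeR adjusted p = 0.0124 and 0.000541), and Trbc2, a constant region of the β chain, had 326, 455 and 471 CPM against 168, 133 and 128 CPM (log2 fold change 1.55 ± 0.26 and 1.69 ± 0.25, 0.0124 and 0.0039). Reads of the near-identical γ and β constant genes may be divided among copies. Cd3g had 177, 381 and 390.0 CPM against 0, 7.13 and 0 CPM and did not pass (0.0657 and 0.0593). Tcrg-C2 had 50, 3.75 and 31.5 CPM against 0, 0.223 and 0 CPM, 2 counts in all (ratio 269 (95% counting interval 74.1 to 2225), edgeR adjusted p = 0.0195 and 0.036), and without ILC1 library 3 it did not pass (0.0526 and 0.0845), nor in the second fit without ILC1 library 1 (0.0537), NK library 2 (0.2299) or NK library 3 (0.279). Camk4, a calmodulin-dependent kinase of T cells, had 12.2, 56.6 and 41.9 CPM against 0.244, 0.334 and 1.84 CPM and was called with all libraries only (log2 fold change 5.48 ± 1.09, edgeR adjusted p = 0.036, and 0.0729 without NK library 1, 0.0618 without NK library 2, 0.145 without ILC1 library 2 and 0.107 without ILC1 library 3). Tcrg-V5, a variable segment of the γ chain, had 4.67, 19.8 and 7.48 CPM in RARa403 ILC1s and 0 counts in every RARa403 NK library (at least 20.4-fold higher, edgeR adjusted p = 0.0439), a call that held under the omission of NK library 3 alone (0.0576 to 0.147 under the others). On libraries 2 and 3 alone Tcrg-C4 (edgeR adjusted p = 0.00126), Trbc2 (0.00715), Cd3g (0.0254) and Camk4 (0.0172) passed, and Cd3e (0.0641), Tcrg-C2 (0.0678) and Tcrg-V5 (0.102) did not. Of 20 T cell markers tested, edgeR called 5 higher and 0 lower with all libraries (0.347% and 0.0544% of all genes). Without NK library 1 it called 4 and 0 (0.404% and 0.0906% of all genes). DESeq2 called 9 and 10 of the markers higher, limma-voom 3 and 4, and both 0 lower. The median log2 fold change of the 20 was 3.24 and 2.81, or 2.74 and 2.56 with genes at 0 in a group set to their bound. Cd8a and Cd8b1 were at 0 in all 6 libraries, Cd4 reached at most 8.19 CPM, and Cd5 was found only in ILC1 library 3 (8.61 CPM). In these bulk libraries fewer cells of a type and less RNA per cell cannot be told apart. The call of Trbc2 ended without ILC1 library 2 (0.0785) or 3 (0.0727) and, in the fit without NK library 1, without NK library 2 (0.0663) or 3 (0.0655). In that fit Cd3e ended without NK library 2 (0.162) or 3 (0.0922).

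On the NK side, 6 genes were lower in RARa403 ILC1s in both fits: Irf8, Itgam, Serpinb9, Mcam, Plod2 and St5. With a block for each genotype and replicate number in the model, 0 genes were called lower over all libraries. Without NK library 1 the same block kept the calls of Irf8, Serpinb9, Plod2 and St5 and ended those of Itgam and Mcam. Irf8, an interferon regulatory factor of NK maturation, had 84.7, 92 and 94.3 CPM in RARa403 ILC1s, against 179, 768 and 403.2 CPM in RARa403 NK cells. The ILC1 libraries were close to each other and below every NK library, of which library 1 was the lowest. Its log2 fold change was -2.32 ± 0.44 (edgeR adjusted p = 0.0267) with all libraries and -2.68 ± 0.34 (0.00135) without NK library 1. Itgam, CD11b of mature NK cells, had 25.7, 20.4 and 31.3 CPM in RARa403 ILC1s, against 492, 196 and 103 CPM in RARa403 NK cells (log2 fold change -3.35 ± 0.59 and -2.52 ± 0.48, edgeR adjusted p = 0.0188 and 0.0225). Serpinb9, the granzyme B inhibitor that protects killer cells, had 153, 193 and 225 CPM against 385, 873 and 691 CPM (log2 fold change -1.77 ± 0.32 and -2.02 ± 0.26, edgeR adjusted p = 0.0216 and 0.00174). For all 3 the call over all libraries ended when any 1 ILC1 library was left out (adjusted p between 0.0724 and 0.145). In the fit without NK library 1 the calls of Irf8 and Serpinb9 stayed whichever library was left out, and that of Itgam ended without ILC1 library 1, 2 or 3 or NK library 2 (0.0646, 0.125, 0.0764 and 0.336).

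Mcam, the adhesion molecule CD146, had 0.156, 0 and 0 CPM in RARa403 ILC1s, a single count in 3 libraries, against 58.6, 46.7 and 55.1 CPM in RARa403 NK cells. The ratio of counts was 0.000955 (95% counting interval 2.42e-05 to 0.00533; edgeR adjusted p = 0.0439 and 0.0359). St5, which encodes a DENN domain protein, had 0, 0 and 0.706 CPM in RARa403 ILC1s against 12.9, 90.9 and 82.3 CPM in RARa403 NK cells (edgeR adjusted p = 0.036 and 0.00995), and Plod2, a lysyl hydroxylase of collagen, had 1.87, 0.15 and 0.141 CPM against 31, 35.6 and 45.2 CPM (0.0317 and 0.0227). All 3 lost their calls over all libraries without ILC1 library 2 (0.242, 0.199 and 0.176) or 3 (0.248, 0.0724 and 0.184), and Mcam and St5 also without ILC1 library 1 (both 0.145). With NK library 1 left out Mcam lost its call under each omission (0.0659 to 0.186), Plod2 under those of ILC1 library 2 or 3 and NK library 2 or 3 (0.0760 to 0.131), and St5 without ILC1 library 2 (0.0551).

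Granzyme A and perforin passed only once NK library 1 was left out. Gzma, granzyme A, had 1889, 1114 and 972 CPM in RARa403 ILC1s, against 1258, 7942 and 5791 CPM in RARa403 NK cells, and Prf1, perforin, had 475, 225 and 318 CPM against 232, 1935 and 1588 CPM. NK library 1 lay inside the ILC1 range for both, while the other 2 NK libraries were above every ILC1 library. With NK library 1 left out the log2 fold change was -2.36 ± 0.40 for Gzma (edgeR adjusted p = 0.0115) and -2.36 ± 0.31 for Prf1 (0.00221), against adjusted p = 0.183 and 0.183 with it. Prf1 kept its call under every further omission, and Gzma lost it without ILC1 library 2 or 3 or NK library 2 (0.0685, 0.0740 and 0.0871). Cma1, which encodes a chymase, had 2.8, 0 and 2.68 CPM against 8.55, 203 and 114 CPM and passed without NK library 1 (0.0484, and 0.0654 to 0.186 under each further omission). Serpinb9b, a paralogue of Serpinb9, had 0 counts in every RARa403 ILC1 library and 7.82, 522 and 181 CPM in RARa403 NK cells, at least 787-fold lower in ILC1s without NK library 1 (edgeR adjusted p = 0.018, and 0.0558 without NK library 2, 0.0846 without ILC1 library 2 and 0.0853 without ILC1 library 3). Klri2, a lectin-like receptor, had 372, 180.3 and 259 CPM in RARa403 ILC1s against 499, 1046 and 1514 CPM in RARa403 NK cells. Its log2 fold change without NK library 1 was -2.22 ± 0.36 (edgeR adjusted p = 0.00937, and 0.0616 with all libraries). With NK library 3 left out as well it was -1.94, and the call was lost. Plek, a substrate of protein kinase C, had 308, 175 and 203 CPM against 217, 925 and 647 CPM (log2 fold change -1.77 ± 0.33 without NK library 1, edgeR adjusted p = 0.018, and 0.22 with all libraries), and its call ended without ILC1 library 2 (0.0956) or 3 (0.0976) or NK library 2 (0.256). The reverse held for Pfkp, a phosphofructokinase of glycolysis, with 260.3, 198 and 203 CPM against 1447, 546 and 444 CPM, which passed with NK library 1 (log2 fold change -1.88 ± 0.38, edgeR adjusted p = 0.0422) and not without it (0.0552), nor without ILC1 library 1, 2 or 3 (0.0982, 0.245 and 0.248). Gzmb overlapped between the groups, with 69.3, 926 and 263 CPM in RARa403 ILC1s and 370.1, 1339.8 and 624 CPM in RARa403 NK cells. Of 20 tested genes of cytotoxic granules, edgeR called 0 higher and 1 lower with all libraries (0.347% and 0.0544% of all genes). Without NK library 1 it called 0 and 3 (0.404% and 0.0906% of all genes). The medians of the list were -0.22 and -0.56. DESeq2 called 3 and 3, and 2 and 4, limma-voom 1 and 5 in both, and edgeR on libraries 2 and 3 alone 0 and 4. At an unadjusted edgeR p under 0.05, 4 were higher and 5 lower, and 4 and 6, where 12.3% and 6.9% of all genes passed in either direction.

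Several genes by which NK cells are best known did not pass in either edgeR fit, and their values spread within the RARa403 ILC1s. Eomes, the T-box factor of NK cells, had 117, 22 and 63.2 CPM in RARa403 ILC1s, against 444, 526 and 644 CPM in RARa403 NK cells. The groups did not overlap, and the log2 fold change was -3.00 ± 0.94 (edgeR adjusted p = 0.22) with all libraries and -3.10 ± 0.95 (0.31) without NK library 1. On libraries 2 and 3 alone it was -3.78 (0.108). Limma-voom called Eomes lower in both fits (adjusted p = 0.00632 and 0.0053), as did edgeR with no filter (4.58e-09 and 4.6e-24), and DESeq2 with all libraries (0.0166) but not without NK library 1 (0.109). Zeb2, which drives NK maturation, had 139, 22.9 and 7.62 CPM in RARa403 ILC1s, against 274, 359.7 and 297 CPM in RARa403 NK cells, and S1pr5, the receptor by which NK cells leave tissue, had 296, 4.94 and 23.7 CPM against 1226, 619 and 625 CPM. For both, ILC1 library 1 was the high one of its group, and the edgeR adjusted p was 0.264 and 0.288 with all libraries and 0.46 and 0.685 without NK library 1. On libraries 2 and 3 alone Zeb2 was lower in ILC1s by a log2 fold change of -4.44 (edgeR adjusted p = 0.00496) and S1pr5 of -5.43 (0.0139).

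Receptors of the Ly49 family, many but not all of which read self MHC on NK cells, showed the same spread. Klra8, Ly49H, had 402.8, 62.3 and 0.282 CPM in RARa403 ILC1s, against 1111, 940.2 and 1697 CPM in RARa403 NK cells (log2 fold change -3.01 ± 1.21, edgeR adjusted p = 0.323, with all libraries). Klra4, Ly49D, had 136, 13.3 and 0 CPM against 572, 1260.2 and 1093 CPM (-4.29 ± 1.42, 0.231). ILC1 library 1 was the highest of its group for both genes and library 3 was at or near 0. Of 11 tested Ly49 genes edgeR called 0 in either direction with all libraries, and of 12 again 0 without NK library 1, while their median log2 fold changes were -2.26 and -2.50. At an unadjusted edgeR p under 0.05, 6 and 8 were lower, where 12.3% and 6.9% of all genes passed in either direction. DESeq2 called 3 and 0 Ly49 genes lower, and limma-voom 6 and 6. On libraries 2 and 3 alone edgeR called 3 lower: Klra4 (log2 fold change -7.48, adjusted p = 0.0131), Klra13-ps (-5.47, 0.0122) and Klra14-ps (-3.96, 0.0131), while Klra8 did not pass (-5.41, 0.126). Members of this family are close copies, so reads may be shared between them. Of the genes that mark NK cells, edgeR called 4 of 38 tested lower and 0 higher with all libraries (0.0544% and 0.347% of all genes). Without NK library 1 it called 7 of 39 and 0 (0.0906% and 0.404% of all genes). The medians of the list were -1.92 and -1.96. Limma-voom called 19 and 21 lower, DESeq2 13 and 8, and edgeR on libraries 2 and 3 alone 12, with 1 higher by DESeq2 with all libraries and 0 in the others. At an unadjusted edgeR p under 0.05, 24 and 25 were lower and 2 and 1 higher, against the same 12.3% and 6.9% of all genes. Klf2, Klrg1 and S1pr1 overlapped between the groups with all libraries. Klf2, a factor of lymphocyte egress, had 310.1, 129.9 and 209 CPM in RARa403 ILC1s and 60.8, 433 and 376 CPM in RARa403 NK cells.

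The genes behind the sort followed it incompletely. Itga1, CD49a, had 87.2, 266 and 210.2 CPM in RARa403 ILC1s, against 195, 4.79 and 0.167 CPM in RARa403 NK cells, so that NK library 1 held as much as the ILC1s. The log2 fold change without it was 6.15 ± 1.03 (edgeR adjusted p = 0.00995, and 0.0634 without NK library 3), while with it the adjusted p was 0.702. Itga2, CD49b, had 51.1, 15 and 29.9 CPM against 100.4, 128 and 135 CPM (0.243 and 0.377), and Il7r had 894, 427 and 902 CPM against 209, 9.35 and 144 CPM (0.183 and 0.105). Neither overlapped and neither passed in these 2 fits. Under the 14 alternatives with all libraries, Itga2 passed in 2 and Il7r in 3. Differences in these genes follow from how the cells were chosen. Ncr1, which encodes NKp46 of both gates, had 2408, 3429.5 and 2787 CPM in RARa403 ILC1s and 1084, 3136 and 3218 CPM in RARa403 NK cells. Tbx21, which encodes T-bet, had 800.0, 709.9 and 604 CPM in RARa403 ILC1s and 543, 872 and 699 CPM in RARa403 NK cells. Both overlapped between the groups.

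Genes of the retinoid pathway gave few calls. Of 19 tested targets of retinoic acid and genes of its metabolism, edgeR called 2 higher and 1 lower with all libraries (0.347% and 0.0544% of all genes). Without NK library 1 it called 2 and 0 (0.404% and 0.0906% of all genes). DESeq2 called 3 and 1 of the list in both fits, and limma-voom 1 and 1. The higher ones in edgeR were Itgb7 and Asb2, a ubiquitin ligase subunit induced by retinoic acid, with 18.5, 280.5 and 192 CPM in RARa403 ILC1s, against 0.244, 6.24 and 1.33 CPM in RARa403 NK cells (log2 fold change 5.87 ± 1.09 and 5.38 ± 1.12, edgeR adjusted p = 0.0254 and 0.041). ILC1 library 1 was the low one, still above every NK library, and the call ended without ILC1 library 2 (0.0951 and 0.117) or 3 (0.0703 and 0.103) and, in the second fit, without NK library 2 (0.151) or 3 (0.320). The lower one was Itga4, given above. Rarb, a receptor gene that retinoic acid switches on, was low, with 3.89, 2.55 and 9.88 CPM in RARa403 ILC1s and 0.489, 0.223 and 0.501 CPM in RARa403 NK cells (0.511 and 0.783), while control ILC1s had 0, 0 and 0 CPM and control NK cells 0.311, 0 and 0.529 CPM. Rarg had 44.1, 14.2 and 25.7 CPM and 12, 19.5 and 16.9 CPM, with overlap. Rara was 40.3, 44.8 and 51.7 CPM in RARa403 ILC1s, and in RARa403 NK cells its sign turned on library 1: the log2 fold change was -1.83 ± 0.75 with it and 0.71 ± 0.33 without it, neither past the threshold (0.335 and 0.718).

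The same comparison in control cells gives the background. With all libraries 63 genes were higher and 26 lower in control ILC1s than in control NK cells (0.428% and 0.177% of genes tested, 0.605% in all), and in the fit without NK RARa403 library 1, whose control libraries are the same, 188 and 102 (1.13% and 0.616%, 1.75% in all). Of the 63, 36 (57.1%) were called higher in RARa403 cells too, and of the 26, 4 (15.4%) were called lower. Without NK library 1, 61 of 188 (32.4%) and 12 of 102 (11.8%) were. The direction was the same in RARa403 for all 63 and all 26, and for 187 and 101 in the other fit. No gene was called in opposite directions. Libraries of the RARa403 groups were fully apart in the same direction for 57 of 63 and 16 of 26 genes, against 7.58% and 4.71% of all genes, and without NK library 1 for 162 of 188 and 79 of 102, against 10.8% and 11.2%. The median log2 fold change of the higher genes was 4.50 in RARa403 and 4.83 in control with all libraries, and 2.07 and 3.23 in the other fit, with genes at 0 in a group set to their bound. That of the lower genes was -1.98 in RARa403 and -2.97 in control, and -0.98 and -1.82. Control folds of genes picked by their control calls are high by that choice, so the difference between the genotypes in these medians is not a result. Across all genes the 2 fold changes had a Pearson correlation of 0.269 and a Spearman correlation of 0.193 with all libraries, and 0.259 and 0.231 without NK library 1, as a description over genes that share libraries and depth.

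The number of shared calls moved with single libraries too. It was 40 with all libraries and ranged from 12 to 73 when 1 library was left out, with 12 without NK control library 1, 14 without NK control library 3 or ILC1 RARa403 library 2 and 17 without ILC1 RARa403 library 3. The omissions of NK control library 2 and of ILC1 control library 1, 2 or 3 gave 21, 22, 26 and 26, and that of NK RARa403 library 1 gave 73. In the fit without NK RARa403 library 1 it was 73 and ranged from 21 to 103, with 21 without NK RARa403 library 2, 38 without NK RARa403 library 3 and 45 without ILC1 RARa403 library 2. The 89 control calls themselves became 35, 55 and 41 without ILC1 control library 1, 2 or 3, and 18, 31 and 18 without NK control library 1, 2 or 3.

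**Figure D3:**
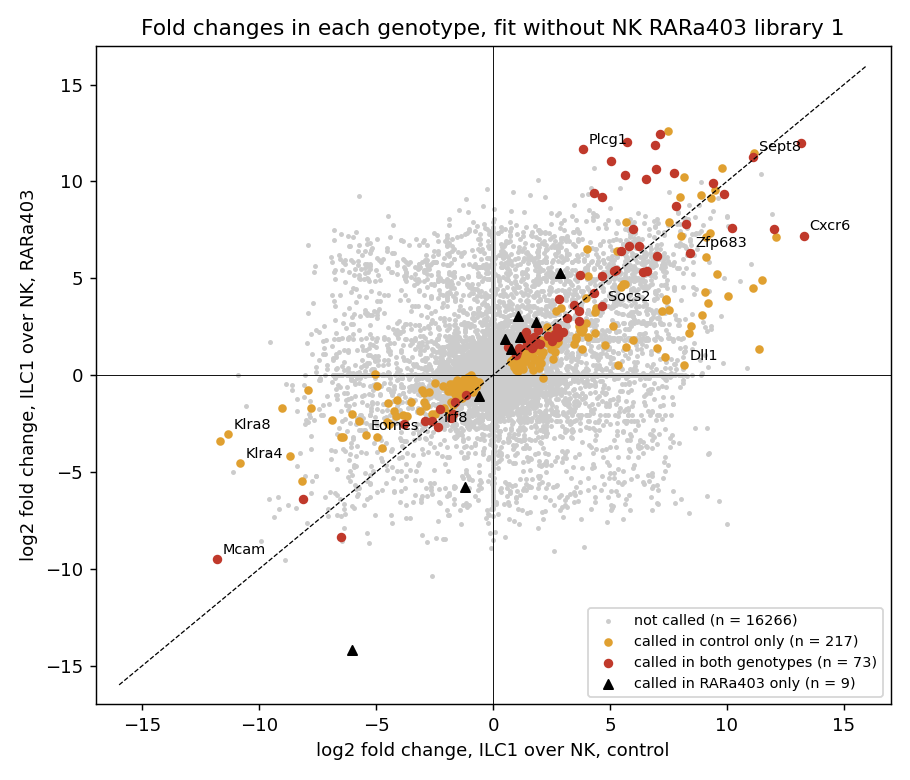
Each point is a gene, with the fitted log2 fold change of ILC1s over NK cells in control mice on the horizontal axis and in RARa403 mice on the vertical axis, in the fit without NK RARa403 library 1, and the dashed line marks equal folds. The 73 genes called in both genotypes (red) and most of the 217 called in control alone (orange) lie in the quadrants where both folds have the same sign, 9 genes were called in RARa403 alone (black triangles), and Klra8 and Klra4 sit far nearer to 0 in RARa403 than in control.

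Among the control calls of smallest p that did not pass in RARa403 were the Ly49 genes Klra8, Klra4 and Klra14-ps, a pseudogene, along with Eomes. Klra8 had 402.8, 62.3 and 0.282 CPM in RARa403 ILC1s, against 0.273, 0 and 1.3 CPM in control ILC1s, while NK cells had 1111, 940.2 and 1697 CPM in RARa403 and 1476, 1328 and 1427 CPM in control. Klra4 had 136, 13.3 and 0 CPM in RARa403 ILC1s and 1.23, 0 and 0 CPM in control ILC1s. RARa403 ILC1 libraries 1 and 2 were therefore above all control ILC1 libraries for both genes, and library 3 was not. Eomes had 6.95, 30.4 and 2.17 CPM in control ILC1s, so that RARa403 libraries 1 and 3 lay above that range and library 2 within it. On the ILC1 side, Spint2, a serine protease inhibitor, had 78.2, 123 and 111 CPM in RARa403 ILC1s and 63.3, 31.4 and 50.1 CPM in RARa403 NK cells, against 140.1, 139 and 123 CPM in control ILC1s and 29.4, 24.1 and 17.8 CPM in control NK cells. Ckb, brain creatine kinase, had 50.5, 184 and 146 CPM in RARa403 ILC1s and 0, 0 and 11.7 CPM in RARa403 NK cells and fell short of the threshold (edgeR adjusted p = 0.18 and 0.2). Gpr183, the oxysterol receptor EBI2, had 121, 48.5 and 189 CPM and 12.2, 12.2 and 29.4 CPM (0.105 and 0.192). Il10ra, the interleukin-10 receptor chain, was lower by a log2 fold change of -1.15 ± 0.26 and -0.97 ± 0.24 in RARa403 ILC1s without overlap (0.0756 and 0.111), with 167, 119 and 133 CPM against 377, 261 and 293 CPM. Mmp9, a secreted metalloproteinase, had 3.74, 216 and 179.6 CPM in RARa403 ILC1s and 0, 1.67 and 0 CPM in RARa403 NK cells (0.105 and 0.167), ILC1 library 1 being the low one. Tcrg-C1, Ccdc136, Spint2, Qpct, Faah, Trp53i13, Ltbr, Tm6sf1, Plec, Nrarp, Sh2d1a and Klra14-ps were likewise apart in the direction of the control call in both fits, at adjusted p above 0.05, whereas the RARa403 groups overlapped for Gramd4. Armc7 and Rab11fip1 passed only without NK library 1, with 146, 126 and 148 CPM against 80.9, 51 and 41.1 CPM and 59.8, 95.1 and 71.6 CPM against 72.1, 15.4 and 23.5 CPM (edgeR adjusted p = 0.0182 and 0.0112). Those calls ended without NK library 2 (0.162 and 0.316) or 3 (0.289 and 0.0569), and without ILC1 library 3 for Armc7 (0.0734) or 2 for Rab11fip1 (0.0511).

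A smaller group was called in RARa403 and not in control, 19 genes with all libraries and 9 without NK library 1. Lyst, Cd96 and Plod2 were in both counts. Lyst, the regulator of lysosome size that is lost in Chediak-Higashi syndrome, had 62.2, 140.2 and 86.4 CPM in RARa403 ILC1s and 0.489, 12.2 and 10.8 CPM in RARa403 NK cells, against 62.4, 57 and 86.9 CPM in control ILC1s and 28.3, 44.6 and 26.3 CPM in control NK cells. In RARa403 its log2 fold change was 3.59 ± 0.70 (edgeR adjusted p = 0.0324) and 3.07 ± 0.43 without NK library 1 (0.00276), and in control 1.06 ± 0.64 (0.777). The RARa403 call ended without ILC1 library 2 (0.147) or 3 (0.0876) over all libraries and without NK library 3 (0.05003) in the other fit. A call in 1 genotype and not in the other does not show that the genotypes differ, which the interaction tests.

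That test, of whether the ILC1 to NK fold change differed between RARa403 and control, called 0 genes with edgeR in either fit, with 913 of 14714 (6.20%) and 730 of 16565 genes (4.41%) at an unadjusted p under 0.05. DESeq2 called 43 and 24, edgeR with no filter on low counts 268 and 120, and limma-voom 0 in both, and when each library was left out edgeR called 0 or 1. The gene of smallest p in both fits was Plcg1, which had 35.4, 83.5 and 64.5 CPM in RARa403 ILC1s and 0.244, 0 and 0 CPM in RARa403 NK cells, against 63, 41.8 and 57.2 CPM in control ILC1s and 2.64, 4.78 and 3.71 CPM in control NK cells. Its edgeR adjusted p was 0.467 with all libraries and 0.0692 without NK library 1, where leaving out ILC1 RARa403 library 1 brought it to 0.0423. DESeq2 called it in both fits (0.00304 and 0.00417), and so did edgeR with no filter (0.00433 and 9.53e-06). Among genes of at least 3 log2 CPM Klra8 came next over all libraries, with an interaction of 8.32 ± 1.96 on the log2 scale (adjusted p = 0.798), and it passed when ILC1 RARa403 library 3 was left out (8.91, adjusted p = 0.0388). DESeq2 called Klra8 with all libraries (0.00529), and edgeR with no filter in both fits (8.35e-36 and 5.8e-70). Copg2, a coatomer subunit, had an interaction of -2.45 ± 0.63 (adjusted p = 0.798). The next gene without NK library 1 was Dll1, a Notch ligand, with 4.67, 18.3 and 2.4 CPM in RARa403 ILC1s and 0, 8.91 and 3 CPM in RARa403 NK cells, against 20.4, 12.9 and 26.2 CPM in control ILC1s and 0, 0 and 0.176 CPM in control NK cells (interaction -7.68 ± 1.40, adjusted p = 0.397). H2afx, the histone H2A.X gene, had an interaction of -2.68 ± 0.64 (adjusted p above 0.99) in that fit, with RARa403 ILC1s at 48.8, 43.6 and 54.3 CPM and RARa403 NK cells at 51.5, 175 and 93.1 CPM, against 169.7, 109 and 116 CPM in control ILC1s and 67.5, 55.5 and 43.8 CPM in control NK cells.

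**Figure D4:**
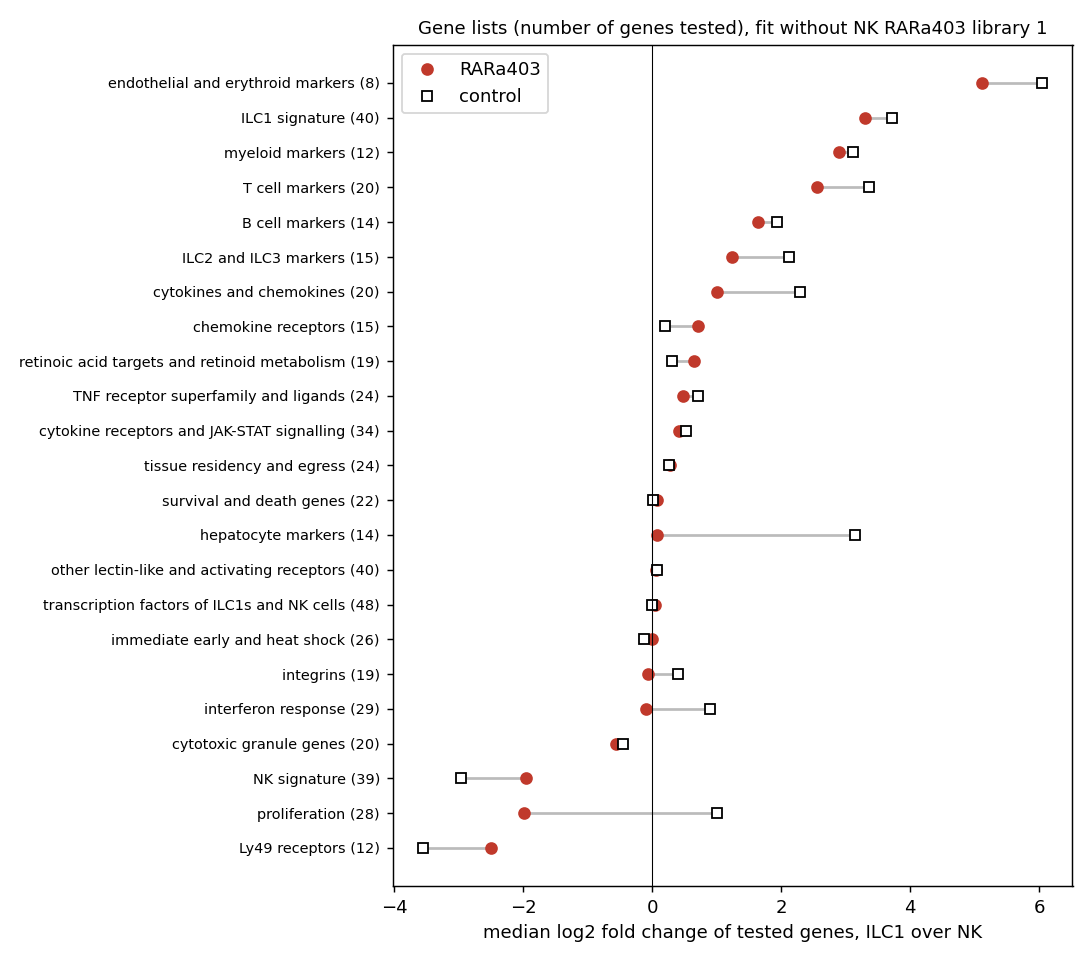
Each row is a list of genes with the number tested, and its median log2 fold change of ILC1s over NK cells is given for RARa403 (red circle) and control (open square) in the fit without NK RARa403 library 1, with genes at 0 counts in a group set to their bound. The ILC1 list lies above 0 in both genotypes and the NK and Ly49 lists below it, and the proliferation list is at -1.99 in RARa403 and 1.01 in control.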

How the data were processed

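RNA-seq gene counts, deposited by the authors as whole numbers in a table of 18 libraries, were used as deposited, and 0 columns were left over. The submitters' processing notes list fastp 0.23.0, HISAT2 2.1.0 with the mm10 build, and featureCounts from Subread 1.6.5. Neither the annotation, nor strand use, nor how multiply aligned reads were treated is stated there, so copies, overlapping genes and antisense genes are uncertain. Of 46078 genes, 45143 had a symbol, and those without one held 0.0544% of counts. Total counts per library are given with the results. CPM are counts scaled to a common library total with TMM factors, and 3 counts in a library, the floor, equal 0.334 to 0.733 CPM in the RARa403 libraries. A ratio with a counting interval is of counts summed over the libraries of each group, scaled by their summed library totals, and not of mean CPM. Intervals and floors cover counting error only.

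Genes were kept with filterByExpr at a minimum count of 10. An edgeR 4.0.16 quasi-likelihood model with 6 group means was fitted in R 4.3.3 to all 18 libraries, or to 17 without NK RARa403 library 1, and p-values were adjusted by Benjamini-Hochberg over all genes tested, with a threshold of 0.05. Common biological coefficients of variation were 0.862 and 0.834. Standard errors were derived from the F statistic. Alternatives were DESeq2 1.42.0, limma 3.58.1 voom with quality weights, RLE factors, no filter, only the groups compared, a replicate block, libraries 2 and 3 only, a log2 fold threshold of 1 and each library left out in turn. The replicate block was set by genotype and replicate number together, so libraries of different genotypes never shared a block. The control comparison in the 17-library fit was added after seeing the data. The steps were tested on simulated data.

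The members, the 23 gene lists and the tests were chosen with earlier results of these data known. The text names the 12 largest changes in each direction among called genes whose groups did not overlap and whose higher group averaged 3 log2 CPM or more (prior count 2), without predicted or unnamed genes. Added to these are a fixed set of identity genes, up to 6 called members of each list or else the 2 of smallest p, the 4 interaction genes of smallest p, and up to 10 control calls per direction that did not pass in RARa403. Other genes, such as Tmem176a, Cd3g, Klrg1, Klra13-ps, Gm13394, Xist, Lars2 and Mki67, were chosen after their values were seen, and the members so named of lists without a call are given by counts. A gene that the rule names is not reported here. Group overlap was judged on CPM per library.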

Additional observations from a re-analysis of the deposited data

How the results depend on the processing

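The counts of calls depended on the test more than on scaling. For RARa403 ILC1s over NK cells, 59 genes with all libraries became 554 with DESeq2, 794 with no filter, 217 with limma-voom, 162 on libraries 2 and 3 only, 22 against a log2 fold of 1, 16 with the replicate block and 0 on the groups compared alone, and 18 to 254 when each library was left out. The 82 without NK library 1 became 345 with DESeq2, 391 with no filter, 292 with limma-voom, 162 on libraries 2 and 3 only, 37 against a log2 fold of 1 and 4 on the groups compared alone, and 26 to 113 when each library was left out, with 82 under the replicate block. The 89 control calls became 290 in the fit without NK RARa403 library 1, 419 with DESeq2, 355 with no filter, 479 with limma-voom, 221 on libraries 2 and 3 only, 343 on the groups compared alone, 29 with the replicate block and 18 to 55 when each library was left out. Calls shared by both genotypes, 40 with all libraries, became 176, 192, 157, 114, 0 and 8 under DESeq2, no filter, limma-voom, libraries 2 and 3 only, the groups compared alone and the replicate block, and 12 to 73 when each library was left out. The 73 shared without NK library 1 became 223, 277, 185, 114 and 3 under the same alternatives up to the groups compared alone, 69 with the block, and 21 to 103 when each library was left out. The interaction, 0 in both fits, gave 43 and 24 with DESeq2, 268 and 120 with no filter, and 0 to 1 when each library was left out. RLE factors moved no count by over 1.5 times. The cause of these changes was not tested.

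Of the 50 genes called in both fits, 34, with 28 higher and 6 lower, were also called by DESeq2 and limma-voom in both fits and on libraries 2 and 3 only. Libraries with the same replicate number correlated at 0.05 to 0.06 in their deviations in RARa403 and at 0.07 to 0.10 in control. Each library correlated best with its own number, and Xist was high in the same-numbered libraries of both populations. The sample codes of same-numbered libraries also match within each genotype, apart from the letters for the population. Whether a number or code marks a shared animal is not stated. The main fits do not pair the libraries and may thus ignore a real pairing. Under the replicate block the 16 calls with all libraries were all higher and 0 were lower. Over the named genes, 671 of 935 values under the alternatives kept direction and side of the threshold with all libraries and 697 of 923 without NK library 1, 208 and 192 fell short of it and 45 and 30 newly passed. The direction turned in 11 and 4 values, all of genes that did not pass. With all libraries Tbx21 was 0.035 with the replicate block, Ncr1 -0.11 with limma-voom and -0.037 on libraries 2 and 3, and Rara 0.72 and 0.77 under the same pair. When each library was left out Tbx21 ranged from -0.14 to 0.19, Ncr1 from -0.13 to 0.44, Rara from -2.36 to 0.71, Cd69 from -0.40 to 0.89 and Klf2 from -0.88 to 0.0042. In the fit without NK library 1 the same omissions gave Tbx21 from -0.30 to 0.032, Cd69 from -0.68 to 0.69 and S1pr1 from -1.27 to 0.0034. Genes near the floor, such as Rarb in NK cells, rest on few counts.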

Other observations

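The list of proliferation genes had 0 members called by edgeR in either genotype, and its medians stood on opposite sides of 0. In RARa403, 8 and 7 were lower at an unadjusted edgeR p under 0.05, with all libraries and without NK library 1. Of all genes 12.3% and 6.9% passed there in either direction. DESeq2 called 4 and 1 of the list lower and limma-voom 1 and 1. The median log2 fold change of its 28 tested genes was -1.95 in RARa403 and 1.00 in control with all libraries, and -1.99 and 1.01 without NK library 1. Mki67, the gene of the Ki-67 antigen, had 0.779, 19.2 and 12.7 CPM in RARa403 ILC1s and 249, 147 and 34.4 CPM in RARa403 NK cells, against 87.6, 29.5 and 37.7 CPM in control ILC1s and 63.9, 8.45 and 3.35 CPM in control NK cells. Cdc20, an activator of the anaphase-promoting complex, had 5.3, 3 and 14.4 CPM in RARa403 ILC1s and 76, 44 and 12.3 CPM in RARa403 NK cells, against 43.9, 35 and 31.2 CPM in control ILC1s and 6.69, 12.2 and 4.94 CPM in control NK cells. Stmn1, which encodes a tubulin-binding protein, had 15.6, 59.3 and 53.4 CPM in RARa403 ILC1s and 139, 249 and 153 CPM in RARa403 NK cells, and did not pass (edgeR adjusted p = 0.183 and 0.158). Mki67 was chosen after its values were seen.

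Cytokine and chemokine genes gave 0 edgeR calls in RARa403 cells, over 18 tested with all libraries and 20 without NK library 1, where 3 and 4 were higher in control ILC1s than in control NK cells. At an unadjusted edgeR p under 0.05, 4 and 5 were higher and 1 and 0 lower in RARa403. Of all genes 12.3% and 6.9% passed there in either direction. DESeq2 called 3 and 4 of the list higher and limma-voom 3 and 2. Ifng, interferon-γ, had 84.7, 194 and 164 CPM in RARa403 ILC1s and 61.1, 58.2 and 102 CPM in RARa403 NK cells, with overlap, and Xcl1, lymphotactin, had 205, 272 and 227 CPM against 103, 57.4 and 71.4 CPM, without. Lists of interferon response, survival and death, immediate early and heat shock, hepatocyte, myeloid, endothelial and erythroid, B cell, and ILC2 and ILC3 genes had 0 members called by edgeR in RARa403 in both fits. DESeq2 called 1 survival, 2 myeloid and 3 ILC2 and ILC3 genes higher and 2 hepatocyte genes lower with all libraries. Limma-voom called 1 ILC2 and ILC3 gene higher. At an unadjusted edgeR p under 0.05, 6 of 10 myeloid and 6 of 13 ILC2 and ILC3 genes were higher with all libraries. Without NK library 1, 3 of 12 and 5 of 15 were. The other lists had 0 to 3 genes higher in either fit, and all had 0 or 1 lower. The shares of all genes were again 12.3% and 6.9% in either direction. In the TNF superfamily Tnfrsf25, the death receptor DR3, was called higher without NK library 1 (43.3, 63.1 and 30.8 CPM in RARa403 ILC1s, against 22.2, 1.78 and 0.167 CPM in RARa403 NK cells; log2 fold change 5.44 ± 0.99, edgeR adjusted p = 0.0179), a call that ended without ILC1 library 2 (0.0534) or NK library 3 (0.154).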
